A study of Mus musculus with 2 samples.

Results

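Immunoglobulin chain genes and B cell receptor genes were followed across the cell clusters of liver cells prepared as primary hepatocytes. The 8 genes were given by name: 5 antibody chain genes (Igkc, Ighm, Iglc1, Iglc2 and Jchain) and 3 receptor genes (Cd79a, Cd79b and Ms4a1). All 8 were found among the 1755 genes that the authors' table of all cells lists for at least 1 of 12 clusters, and 0 among the 1609 genes of their table of hepatocyte clusters. The hepatocytes came from wild type BALB/c mice that received PBS or recombinant IL-33 (rIL-33, 0.5 µg per day) by intraperitoneal injection for 5 days, and each treatment gave 1 library of the 10x Genomics 3ʹ droplet method. Per the study's methods the mice were young adults and had been fasted, and the number of mice per library is not given in the sources used here. The deposited tables pool the cells of both libraries, so PBS and rIL-33 could not be compared, and no value below has replicates, an SD or a test.

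An antibody is built from heavy chains and light chains of the kappa or lambda class. Ighm encodes the constant region of the mu heavy chain of IgM, Igkc that of the kappa light chain, and Iglc1, Iglc2 and Iglc3 those of lambda light chains. Jchain encodes the joining chain that links IgM and IgA units into polymers and is made mainly by antibody-secreting cells. On the surface of a B cell, membrane-bound IgM pairs with Cd79a (Igα) and Cd79b (Igβ), which carry the signal into the cell. Ms4a1 encodes CD20, a surface protein of B cells that plasma cells lose. The mu chain thus belongs both to the receptor and, in its secreted form, to the antibody. It was kept here with the antibody chains.

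A cell is called positive for a gene here where its value was above 0. Each row of the authors' table pairs a gene with a cluster and gives the share of positive cells in that cluster and the share in all other cells. The members were chosen by these same shares, so all of their values are a description. In the GRCm38 assembly (GENCODE M21; the authors aligned to mm10, which is the same assembly), Igkc (ENSMUSG00000076609.2) is a single annotated exon on chromosome 6 from 70726435 to 70726966. Ighm (ENSMUSG00000076617.9) lies on chromosome 12 from 113418558 to 113422730, with 6 exons in its longest coding transcript, and Jchain (ENSMUSG00000067149.6) on chromosome 5 from 88519809 to 88527891, with 4. The receptor genes are unlinked to these and to each other: Cd79a (ENSMUSG00000003379.7) is on chromosome 7 from 24897381 to 24902197, Cd79b (ENSMUSG00000040592.11) on chromosome 11 from 106311341 to 106314762, and Ms4a1 (ENSMUSG00000024673.9) on chromosome 19 from 11249675 to 11266241.

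The lambda genes lie together on chromosome 16, with Iglc1 from 19061618 to 19062071, Iglc3 from 19065230 to 19065681 and Iglc2 from 19198396 to 19200351, all on the minus strand. Their sequences are shown because Iglc2 and Iglc3 are much alike, whereas Iglc1 differs from both. The last 90 coding bases of each constant region exon, stop codon included, are given 5ʹ to 3ʹ from the GENCODE M21 transcripts, and capitals mark the 27 positions at which the copies do not all carry the same base. On GRCm38 these stretches run from 19061752 to 19061841 for Iglc1, from 19198536 to 19198625 for Iglc2 and from 19065365 to 19065454 for Iglc3.
Iglc1: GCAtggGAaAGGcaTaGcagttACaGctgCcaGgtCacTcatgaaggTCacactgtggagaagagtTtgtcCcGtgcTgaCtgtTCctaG
Iglc2: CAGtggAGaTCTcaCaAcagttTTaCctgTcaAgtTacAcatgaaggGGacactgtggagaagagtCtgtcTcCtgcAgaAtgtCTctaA
Iglc3: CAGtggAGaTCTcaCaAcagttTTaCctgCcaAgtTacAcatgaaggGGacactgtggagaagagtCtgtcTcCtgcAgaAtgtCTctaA
Iglc2 and Iglc3 differed at 1 of these 90 bases, and Iglc1 differed from Iglc2 at 27 and from Iglc3 at 26. Over the whole single-exon transcripts, Iglc2 and Iglc3 were identical at 94.3% of aligned positions, against 67.2% for Iglc1 and Iglc2 and 68.4% for Iglc1 and Iglc3. How the authors' counting treated reads that fit both Iglc2 and Iglc3 was not tested, and the values of these genes are uncertain individually.

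Each of the 8 genes was listed for the B cell cluster and for no other cluster. Of all 1755 genes, 29.1% were listed for the B cell cluster, and 10.8% of the 511 genes listed for it were listed for it alone. The cluster held 2.19% of all cells, a size computed from the balance of both shares over genes listed for at least 2 clusters. Its usual B cell markers are members here, so their listing is no independent check of its label. None of the 7 T cell, 6 Kupffer cell, 4 neutrophil, 5 hepatocyte and 3 plasmacytoid dendritic cell markers was listed for it. Absence from the table does not mean absence of expression.

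Antibody chains were found in most cells of the B cell cluster and also in 44.7% to 68.1% of all other cells. In the authors' table, 80.6% of the cells of the B cell cluster and 68.1% of all other cells were positive for Igkc. For Ighm the shares were 79.4% and 61.6%. The lambda chain gene Iglc1 was positive in 64.0% of the cluster and 54.3% of other cells, and Iglc2 in 66.8% and 44.7%. For Jchain the shares were 60.7% and 51.9%, the smallest gap of the group. The share in the cluster exceeded that elsewhere by 8.8 percentage points for Jchain, 9.7 for Iglc1, 12.5 for Igkc, 17.8 for Ighm and 22.1 for Iglc2. As a ratio, Jchain, Igkc and Iglc1 were between 1.17 and 1.18 times as frequent in the cluster as outside it, Ighm 1.29 times and Iglc2 1.49 times.

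Receptor genes were found in fewer cells of the B cell cluster, and in few cells outside it. Cd79a was positive in 60.3% of the cluster and 7.8% of all other cells. Cd79b was positive in 55.9% and 2.5%. For Ms4a1 the shares were 33.2% and 0.1%. The share in the cluster exceeded that elsewhere by 52.5 percentage points for Cd79a, 53.4 for Cd79b and 33.1 for Ms4a1. Cd79a was 7.73 times as frequent in the cluster as outside it and Cd79b 22.4 times. The deposited shares are rounded to 0.1 percentage points, which leaves the ratio for Ms4a1 anywhere between 221 and 665.

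**Figure D1:**
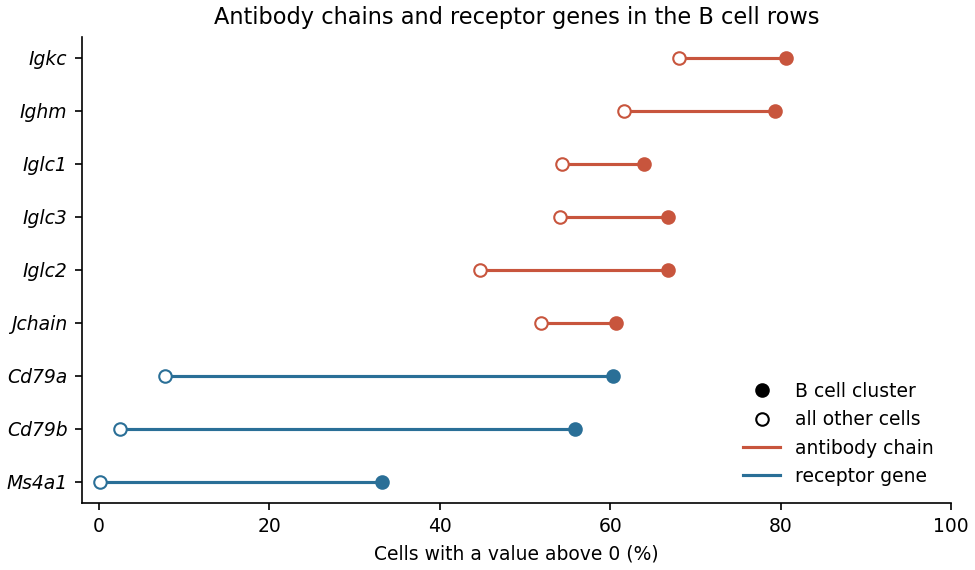
Each line joins the percentage of positive cells in the B cell cluster (filled circle) to the percentage in all other cells (open circle), from the authors' table with both libraries pooled, for antibody chains in red and receptor genes in blue. The open circles of the antibody chains lie between 44.7% and 68.1%, whereas those of the receptor genes lie between 0.1% and 7.8%.

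The groups did not overlap in either share. Outside the B cell cluster, the antibody chains ranged from 44.7% to 68.1% with a median of 54.3%, and the receptor genes from 0.1% to 7.8% with a median of 2.5%, so that the medians were 51.8 percentage points apart. The median over all 511 genes listed for the cluster was 27.8%, which lies between both groups. Inside the cluster, the antibody chains ranged from 60.7% to 80.6% (median 66.8%) and the receptor genes from 33.2% to 60.3% (median 55.9%), with 44.5% for all listed genes. Jchain and Cd79a, at the edges of these ranges, were 0.4 percentage points apart inside the cluster and 44.1 percentage points apart outside it. The difference between both shares was at most 22.1 percentage points for an antibody chain and at least 33.1 for a receptor gene, with a median of 22.3 for all listed genes.

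Among the genes listed for the B cell cluster, Igkc had the second highest share in other cells (rank 2 of 511), Ighm ranked 6, Iglc1 13, Jchain 22 and Iglc2 49. A share outside the cluster at least as high as that of Iglc2 was found for 9.59% of the listed genes. At the other end, Ms4a1 had the lowest share of all (rank 511), and Cd79b and Cd79a ranked 493 and 442. A share as low as that of Cd79a or lower was found for 13.7% of the listed genes. By the difference between both shares, Cd79b ranked 12, Cd79a 14 and Ms4a1 130, and 25.8% of the listed genes had a difference at least as large as that of Ms4a1. Iglc2 ranked 263 and Jchain 409, and 48.7% of the listed genes had a difference no larger than that of Iglc2. The antibody chains were thus not alone in their high share elsewhere, and the receptor genes were not alone in their low one. In all, 94.7% of the listed genes had a higher share inside the cluster than outside it, as did all 8 genes.

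**Figure D2:**
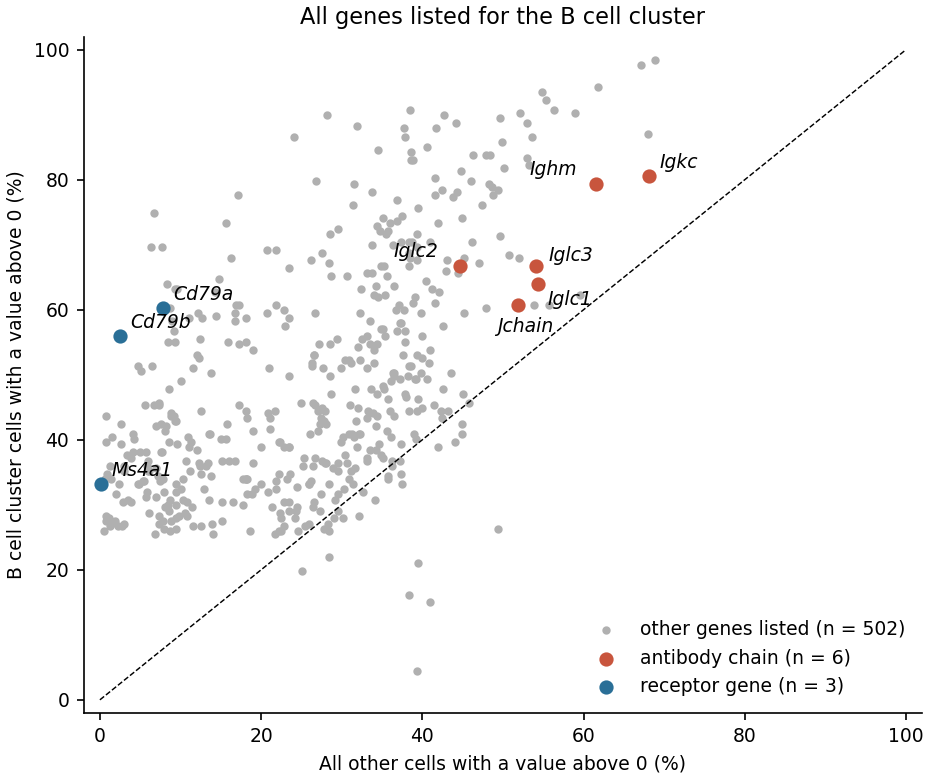
The percentage of positive cells in the B cell cluster (vertical axis) is plotted against that in all other cells (horizontal axis) for the 511 genes listed for the cluster, with equal shares on the dashed line. The antibody chains, including Iglc3, lie to the right and close to the line, and the receptor genes lie at the left edge.

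Other genes with the same share outside the cluster were mostly found in more cells inside it. Apart from immunoglobulin genes and Jchain, 42 listed genes had a share outside the cluster within the range of the antibody chains. Their median share inside was 79.2%, and their median difference was 29.2 percentage points, against 12.5 for the antibody chains. Of these 42 genes, 27 had a difference above that of Iglc2 and 8 had one below that of Jchain.

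The gene nearest to each member in both shares was found among the 472 listed genes outside the members and the B cell lists, by the distance in percentage points. The antibody chains lay nearest to genes that were themselves listed for 3 to 6 clusters. Psap, which encodes a lysosomal precursor protein, was nearest to both Jchain (distance 2.0) and Iglc1 (distance 3.32), with shares of 60.7% inside and 53.9% outside. The ubiquitin gene Ubb, with 87.0% and 68.0%, was nearest to Igkc at a distance of 6.40. Ybx1 was nearest to Ighm (distance 8.85) and Abracl to Iglc2 (distance 1.24). Psap and Ybx1 were listed for 4 clusters each, and Ubb for 6. For the receptor genes, H2-Eb1, a chain of MHC class II, was nearest to Cd79a (distance 0.9), with 60.3% inside and 8.7% outside. Lsp1 was nearest to Cd79b (distance 5.01). Rasgrp3, with 34% and 0.6%, was nearest to Ms4a1 (distance 0.943). H2-Eb1 was listed for 2 clusters, Lsp1 for 3 and Rasgrp3 for the B cell cluster alone.

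Since the B cell cluster was small, these shares place nearly all cells positive for an antibody chain outside it. Over all cells, 68.4% were positive for Igkc, 62.0% for Ighm, 54.5% for Iglc1, 52.1% for Jchain and 45.2% for Iglc2. Of the positive cells, the B cell cluster held 2.57% for Igkc, 2.80% for Ighm, 2.56% for Iglc1, 3.23% for Iglc2 and 2.54% for Jchain, close to the 2.19% of all cells that it made up. For the receptor genes this proportion was larger. The cluster held 14.7% of the cells positive for Cd79a, 33.3% for Cd79b and 88.1% for Ms4a1, where rounding allows 83.1% to 93.7%. Of all cells, 8.95% were positive for Cd79a, 3.67% for Cd79b and 0.823% for Ms4a1.

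The rows also limit the share of hepatocytes with each gene, although no member was listed for a hepatocyte cluster. The 5 hepatocyte clusters made up 91.9% of the cells outside the B cell cluster. Even if every other cell outside the B cell cluster was positive for Igkc, at least 65.2% of the hepatocytes must have been positive to give the share in the authors' table. The same bound was 58.1% for Ighm, 50.2% for Iglc1, 47.6% for Jchain and 39.8% for Iglc2. These bounds hold for the table of all cells alone, whose shares did not match those of the table of hepatocytes, as described below. For each receptor gene the lower bound was 0, so by the balance of cells alone those positive outside the B cell cluster could all have been non-hepatocytes. For Cd79a this would take up to 96.5% of the cells of the 6 other clusters, against 60.3% in the B cell cluster. It would take up to 31.4% of them for Cd79b and 1.84% for Ms4a1. Which cells outside the cluster were positive was not tested. With rounding allowed for, at most 8.54% of the hepatocytes were positive for Cd79a, 2.78% for Cd79b and 0.163% for Ms4a1. A hepatocyte gene was widespread in the converse sense. Alb, the albumin gene, was positive in 100% of the cells both inside and outside Hepatocyte4, which after rounding requires at least 98.1% of the cells of the B cell cluster to be positive for it.

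**Figure D3:**
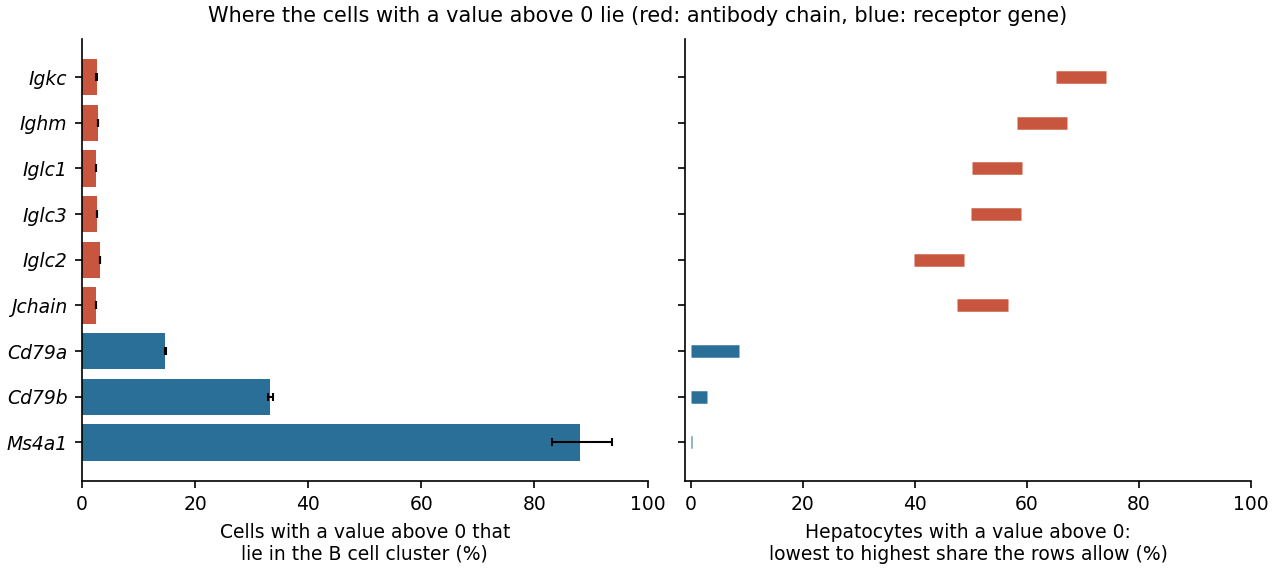
Left, the percentage of all positive cells that lie in the B cell cluster, with error bars for the rounding of the deposited shares. Right, the lowest to highest percentage of positive hepatocytes that the rows allow. The antibody chains (red) have 2.54% to 3.23% of such cells in the B cell cluster and a hepatocyte share of at least 39.8%, and the receptor genes (blue) have 14.7% to 88.1% and a lower bound of 0.

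A further immunoglobulin gene, Iglc3, was listed for 2 clusters. In the B cell cluster 66.8% of the cells were positive, the same share as for Iglc2, against 54.1% of all other cells. It was also listed for Hepatocyte1, the largest hepatocyte cluster, for which 1.77% of all 1755 genes were listed. There, 60.3% of the cells were positive against 48.4% of all other cells, a difference of 11.9 percentage points, close to the 12.7 of the B cell cluster. Both rows led to the same share over all cells, 54.3% from the Hepatocyte1 row and 54.4% from the B cell row. Solving for the remaining 10 clusters left Iglc3 in 47.6% of their cells. Hepatocyte1 held 55.4% of the cells positive for Iglc3 and the B cell cluster 2.68%. For the other antibody chains no hepatocyte cluster was listed, so a difference between hepatocyte clusters was not available. No other gene of the immunoglobulin loci, such as the constant regions of IgD, IgG or IgA or any variable segment, was listed in either table.

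Markers of other immune cell clusters had lower shares outside their own cluster than the antibody chains, apart from 2 neutrophil genes. The 6 T cell markers listed for the T cell cluster had shares of 0% to 13.2% in all other cells (median 3.35%), against 0.1% to 7.8% for the B cell receptor genes. The 6 Kupffer cell markers had shares of 8.2% to 28.2% outside the Kupffer cell cluster. Of the 4 neutrophil markers, shares outside the neutrophil cluster ran from 10.1% to 47.5%, and those of S100a8 (46.9%) and S100a9 (47.5%) exceeded the 44.7% of Iglc2. Both were positive in 99.6% of the neutrophils, differences of 52.7 and 52.1 percentage points.

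By the median, genes that act beside the receptor lay closer to it than to the antibody chains in their share over all other cells. Of 23 genes for receptor signalling and co-receptors, 9 were listed for the B cell cluster, with shares outside it from 2.6% to 27.3% (median 14.3%). Ptprc, the CD45 phosphatase of all leukocytes, was positive in 64.8% of the cluster and 14.8% of other cells, and Rac2 in 62.8% and 14.3%. The kinases that act with Cd79a and Cd79b in receptor signalling had smaller shares in the cluster, and Syk and Lyn larger shares elsewhere. Syk was found in 43.3% and 18.3%, Lyn in 42.5% and 27.3%, and Btk in 34% and 7.8%. The adaptor Blnk, with 36% and 12.4%, was listed for the B cell cluster alone. The rest were also listed for other clusters. Ptprc and Rac2 were positive in 93.2% and 81.8% of the T cell cluster and Lyn in 61.9% of the Kupffer cell cluster, all above the B cell cluster. Syk (41.1%) and Btk (26.5%) were lower in the Kupffer cell cluster than in the B cell cluster. The co-receptor genes Cr2, Cd22 and Cd72 were listed for no cluster.

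Transcription factors of the B lineage had low shares elsewhere. Of 12 such genes, 6 were listed for the B cell cluster, with shares outside it from 1.5% to 15.2% (median 5.65%). Mef2c was positive in 69.6% of the cluster and 6.3% of other cells. Pou2af1 and Pou2f2, which act at the octamer element of immunoglobulin promoters, were positive in 55.1% against 8.4% and in 40.5% against 1.5%. Ebf1, a factor that sets the B cell programme and activates Cd79a, was found in 31.6% and 2.0%. Ikzf1 was found in 38.1% and 5.0%, and Irf8 in 27.5% and 15.2%. Of the 6, 3 were listed for the B cell cluster alone. Ikzf1, Pou2f2 and Irf8 were also listed for other small clusters. Ikzf1 was positive in 54.1% and Pou2f2 in 41.2% of the T cell cluster, both above the B cell cluster, and each in 29.5% of the Kupffer cell cluster, below it. Irf8 was positive in 47.7% of the Kupffer cell cluster and 73.7% of the HSC / fibroblast cluster, both above the B cell cluster. Pax5 was listed for no cluster.

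Among genes of antibody-secreting cells listed for the B cell cluster, Mzb1 was as widespread outside it as Iglc2, Txndc5 came close, and the rest were lower. Of 12 genes, 10 were listed for the B cell cluster, with shares outside it from 7.6% to 45.2% (median 23.2%). Mzb1, a chaperone-associated protein of the endoplasmic reticulum that helps IgM assembly, was positive in 68.0% of the cluster and 45.2% of other cells, which places it beside Iglc2. Txndc5, a protein disulfide isomerase, was found in 67.6% and 43.1%. Xbp1, the factor that expands the secretory pathway, was found in 72.5% and 29.5%, and Creld2 in 60.7% and 16.9%. Edem1 was found in 59.5% and 39.9%. Tnfrsf13b, which encodes the receptor TACI, was found in 58.7% and 12.7%. The plasma cell regulators Irf4 and Prdm1 were lower elsewhere, with 42.5% against 7.6% and 32.0% against 7.9%. Of the 10 genes, 6 were listed for the B cell cluster alone. Edem1 was positive in 62.5% of Hepatocyte4 and Txndc5 in 73.7% of the HSC / fibroblast cluster, both above the B cell cluster. Xbp1 was lower in Hepatocyte4 (63.8%), the HSC / fibroblast cluster (68.4%) and the Kupffer cell cluster (35.8%) than in the B cell cluster. Tnfrsf13b was lower in the T cell cluster (33.1%). Sdc1 (CD138), a surface marker of plasma cells that hepatocytes also make, was listed for Hepatocyte4 (70.3%) and Hepatocyte5 (95.4%) and not for the B cell cluster. Ms4a1, which plasma cells lose, and genes of antibody-secreting cells were therefore listed for the same cluster, and shares over a cluster do not tell whether they came from the same cells.

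**Figure D4:**
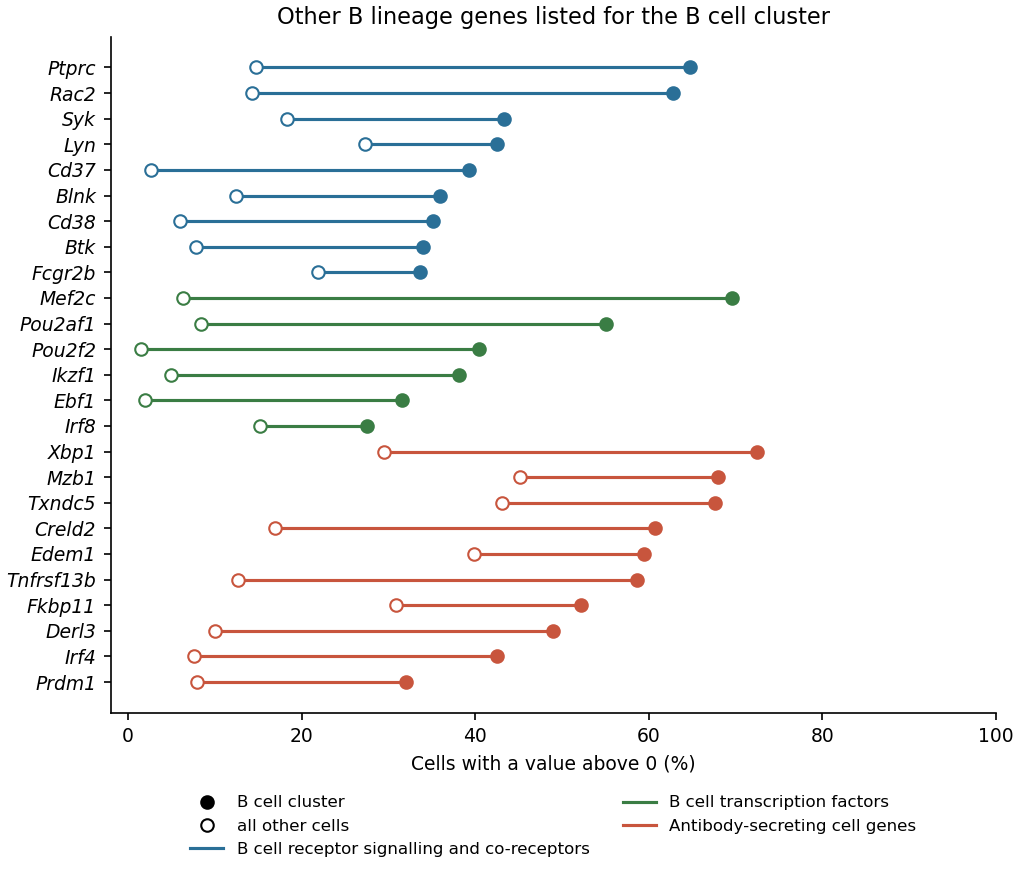
Percentages of positive cells in the B cell cluster (filled circles) and in all other cells (open circles) for the genes of 3 B lineage lists (receptor signalling, transcription factors and antibody-secreting cells) that were listed for the cluster. The open circles of Mzb1 (45.2%), Txndc5 (43.1%) and Edem1 (39.9%) lie farthest to the right, and those of transcription factors lie at or below 15.2%.

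Further genes of B cells were also listed for the cluster. Cd52 was found in 88.3% of the cluster and 31.9% of other cells, Cd24a in 59.1% and 14.4%, and Ralgps2, an exchange factor for Ral GTPases, in 49.4% and 39.2%. H2-DMb2, a chain of the MHC class II peptide loading complex, was found in 25.9% and 0.5%, so that its share elsewhere was close to that of Ms4a1. Of these genes, only H2-DMb2 was listed for the B cell cluster alone. Cd52 was positive in 95.9% of the T cell cluster and Cd24a in 98.8% of the red blood cell cluster. Ralgps2 was positive in 63.2% of the HSC / fibroblast cluster. These shares were above those of the B cell cluster. Cd52 (78.5%) and Cd24a (43%) were lower in the neutrophil cluster, and Ralgps2 (24.1%) in the endothelial cell cluster. Of 6 genes of precursor B cells (Vpreb1, Igll1, Rag1, Rag2, Dntt and Cd93), 0 were listed for any cluster.

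The shares in the table of all cells did not match those in the table of hepatocytes. Both tables give the share of positive cells inside the clusters Hepatocyte1 to Hepatocyte5. For 825 pairs of gene and cluster listed in both, this share was higher in the table of all cells for 704, lower for 17 and equal for 104, with a median difference of 10.5 percentage points and a range from -6.0 to 51.7. The median difference was 13.9 percentage points for Hepatocyte4 and 5.3 for Hepatocyte5. Sdc1, for example, was positive in 70.3% of Hepatocyte4 cells in the table of all cells and in 41.5% of them in the table of hepatocytes, and Xbp1 in 63.8% and 52.7%.

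**Figure D5:**
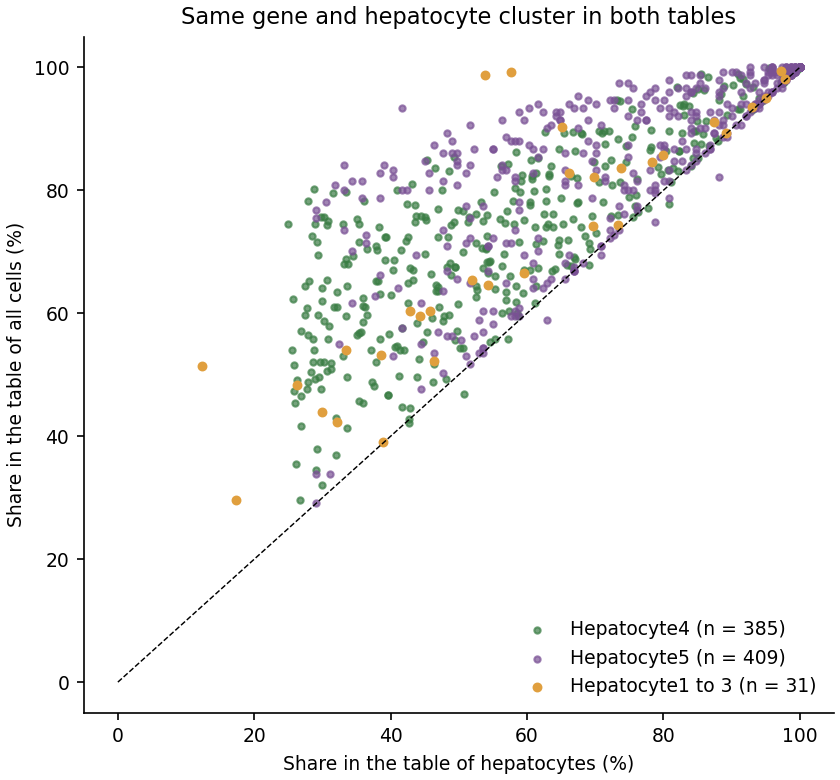
For each gene listed for the same hepatocyte cluster in both tables, the share of positive cells in the table of all cells (vertical axis, percent) is plotted against that in the table of hepatocytes (horizontal axis, percent), with equal shares on the dashed line. Of 825 points, 704 lie above the line.

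A similar gap was found for genes listed for the B cell cluster. Of these, 115 were also listed in the table of hepatocytes, from which a share over all hepatocytes could be computed. The share outside the B cell cluster was higher than the share over hepatocytes for all 115 genes, by a median of 25.1 percentage points, with medians of 38.2% and 12.5%. Cells other than hepatocytes made up 8.13% of the cells outside the B cell cluster. For 114 of the 115 genes, the share outside the B cell cluster was above the value reached if all of these cells were positive and hepatocytes kept their share from the table of hepatocytes. Txndc5 was positive in 43.1% of the cells outside the B cell cluster and in 9.11% of the hepatocytes, and Edem1 in 39.9% and 12.2%. The 8 members are not in the table of hepatocytes, so the size of this gap for the antibody chains is not known. Its part in their shares outside the B cell cluster was not tested, and the lower bounds on hepatocytes given above hold for the values of the table of all cells alone.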

How the data were processed

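Cells of 1 PBS and 1 rIL-33 library were prepared by Liberase perfusion without sorting and sequenced with the 10x Genomics 3ʹ method. UMIs were counted by the authors with Cell Ranger against mm10. The authors then filtered cells by gene number and mitochondrial share, scaled and log-transformed counts per cell, clustered with Seurat and listed markers by FindAllMarkers. The authors' upper limit on genes per cell was set against doublets; no doublet caller was run here. Whether values were batch-integrated is not given in the sources used here.

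The deposited values used here are fractions of cells with a value above 0, inside a cluster and in the remaining cells, printed as percentages. Each row has at least 1 share of 25.0% or more. Columns with the authors' fold changes and p-values were not used. Depth per cell and library is unknown, so no interval for counting error is given.

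Cluster sizes were computed by least squares from 1115 genes listed for at least 2 clusters, since the share over all cells must be equal in each row of a gene (sum 100.1%), and scaled to a total of 100% for the bounds. The fit was tested on simulated data. The members, the lists of genes and the rule for the genes named (members, list genes in order of the share inside the B cell cluster, and the nearest gene to each member) were chosen with earlier results of these data known. No test between groups was run. Lambda transcripts were aligned globally with Biopython 1.88. Python 3.11.15, NumPy 2.4.6, pandas 2.3.3 and matplotlib 3.10.9 were used. Some genes of these lists are not reported here.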

Additional observations from a re-analysis of the deposited data

How the results depend on the processing

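The size of the B cell cluster was between 2.18% and 2.19% with least absolute deviations, with rows at least 10 percentage points apart, or without immunoglobulin and receptor rows, and neither the share of all cells nor the share of such cells in the B cell cluster moved by 0.1 percentage points for any member under these alternatives, some of which were added for these shares after seeing the data. The difference of 51.8 percentage points between the medians of antibody chains and receptor genes outside the cluster was 52.7 with means, 55.45 without Jchain, 50.6 without Ighm, and 51.7 with every listed immunoglobulin gene. As a ratio of both medians it was 21.7. Inside the cluster the difference of 10.9 percentage points was 20.5 with means, 17.2 without Jchain and 9.5 without Ighm, so it depended on these choices more than the difference outside it. The number of member rows was 8 in the table of all cells and 0 in the table of hepatocytes. No member had a row for a second cluster, so the share over all cells could not be recomputed from another row. No paired analysis was possible because each treatment has 1 library and the tables pool both. Without counts, no difference between shares can be set against counting error.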
